A study of Mus musculus with 96 samples.

Results

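Car6, Avil and Prg4 are 3 genes that were next to silent in untreated C2C12 myoblasts and stood among the largest rises when complex I of the respiratory chain was inhibited. They were chosen by the log2 fold change between piericidin and DMSO in control myoblasts, as unexpected names among the largest rises and not as the largest ones, and they are 3 of the 54150 genes and transgenes in the table of counts. C2C12 is a mouse muscle line whose dividing myoblasts leave the cell cycle and fuse into myotubes in low serum. RNA-seq was measured in 96 samples of 35 conditions, with 2 or 3 replicates each, and the question for these genes is how their levels followed the site of inhibition, the enzymes used to correct the redox state, and the state of differentiation.

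Car6 encodes carbonic anhydrase 6, the secreted member of a family of zinc enzymes that interconvert carbon dioxide and bicarbonate, best known from saliva. A shorter form of Car6 that stays inside the cell is known to be made under stress, downstream of the transcription factor CHOP, which the gene Ddit3 encodes. Avil encodes advillin, an actin-binding protein of the villin and gelsolin family known from sensory neurons and tuft cells. Prg4 encodes lubricin, the proteoglycan that lubricates joint surfaces. CHOP is made when ATF4, the central transcription factor of the integrated stress response, is translated, and it pairs with factors of the C/EBP family to bind DNA. RefSeq lists DOC1 among the synonyms of Car6 and DOC6 among those of Avil, names that stand for "downstream of CHOP", and it lists DOL54 and lubricin for Prg4.

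On GRCm38, with the GENCODE M21 annotation, Car6 (ENSMUSG00000028972) lies on the minus strand at chr4:150187015-150201332, Avil (ENSMUSG00000025432) on the plus strand at chr10:127000709-127020994, and Prg4 (ENSMUSG00000006014) on the minus strand at chr1:150449412-150466165. Car6 and Avil have 4 annotated transcripts each, from 4 start sites each, and Prg4 has 8 from 2 start sites; the counts sum all transcripts of a gene, so the secreted and the intracellular form of Car6 cannot be told apart. Avil lies 269780 bases from Ddit3 itself. Among the exon bases of Avil, 165 (4.86%) also belong to exons of Tsfm on the opposite strand, and 204 (4.77%) of those of Prg4 belong to exons of Tpr. Reads were not counted by strand, so reads in these overlaps cannot be told apart, and their part in the values was not tested. In control myoblasts the mean normalized count of Tpr was 983 in DMSO samples and 1960 under piericidin, 1850 under antimycin and 1540 under oligomycin, so Tpr was higher where Prg4 was, by a smaller factor. Tpr was also lower in LbNOX than in control myoblasts under antimycin (log2 fold change -0.78, SE 0.114, edgeR adjusted p = 6.85e-07). Tpr and Prg4 did not go together everywhere. In myotubes with DMSO the mean of Tpr was 758 and that of Prg4 70.5, against 983 and 4.12 in control myoblasts with DMSO. In LbNOX myoblasts Tpr was at 1040 with DMSO and 1230 with piericidin, and Prg4 at 5.44 and 1.59. The mean of Tsfm was 571 in DMSO samples and 596 under piericidin, 597 under antimycin and 765 under oligomycin in control myoblasts.

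RefSeq start-site windows on GRCm38.p6, from 250 bases before to 50 after a start, were at hand for Avil and Car6. They were searched on both strands for TGATGNAA, the composite element at which ATF4 or CHOP pairs with a C/EBP factor, for TGCAAT, a CHOP and C/EBP element, for TGACGTCA, the cyclic AMP response element, and for TGANTCA, the AP-1 element; TGATGNAA and TGCAAT can overlap. The window of Avil held 1 match, to TGATGNAA on the strand of the gene, beginning 17 bases before the start. Of 32851 such windows, 3.97% held TGATGNAA, 8.40% TGCAAT, 1.79% TGACGTCA and 7.81% TGANTCA. The window of Car6 had no match to these letters. It covers 1 of the 4 annotated starts of Car6 and lies largely inside the annotated gene, with 53 bases before the outermost start. The 250 bases before the Avil start, chr10:127000459-127000708 on the plus strand, are shown because they carry that match, which is in capitals.
Avil: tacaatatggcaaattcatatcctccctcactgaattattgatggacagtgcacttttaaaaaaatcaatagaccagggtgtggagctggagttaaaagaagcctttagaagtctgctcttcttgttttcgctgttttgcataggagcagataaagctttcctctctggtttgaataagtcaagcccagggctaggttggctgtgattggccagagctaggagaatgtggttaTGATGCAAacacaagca

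The control myoblasts were a stable line with luciferase under doxycycline control. Other stable lines carried, from the same kind of lentiviral cassette, LbNOX, a bacterial enzyme that oxidizes NADH in the cytosol, mitoLbNOX, the same enzyme sent to the mitochondrial matrix, or NDI1, a yeast NADH dehydrogenase that replaces complex I activity. All of these myoblasts, DMSO controls included, received 300 ng/ml doxycycline. They were treated for 10 hr with DMSO, with 0.5 µM piericidin, which inhibits complex I, with 0.5 µM antimycin, which inhibits complex III, or with 1 µM oligomycin, which inhibits ATP synthase, or for 48 hr with DMSO or 20 µg/ml chloramphenicol, which inhibits mitochondrial translation. Per the study's text, the medium of the shorter treatments had no pyruvate or uridine, and the cells with chloramphenicol had uridine. LbNOX myoblasts received all 4 inhibitors, mitoLbNOX myoblasts piericidin and antimycin, and NDI1 myoblasts piericidin. Untransduced myotubes, after 4 days in low serum, received DMSO, each of the 3 inhibitors of respiration, the uncoupler BAM15 at 0.5 µM, oligomycin with piericidin or with BAM15, or DMSO or oligomycin in hypoxia (5% oxygen). Per the study's methods, the myotubes in hypoxia were moved to 5% oxygen on the night before treatment and stayed in it while treated. Myotubes transduced by adenovirus with GFP alone or with LbNOX received DMSO, oligomycin or piericidin, as did untransduced, largely post-mitotic cells after 24 hr in low serum, called day 1 cells.

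A sample held 6458295 to 15366745 counts, with a median of 10336588.5. The labels give replicate numbers but not whether samples came from separate cultures, so p-values measure the spread between these samples, which may be technical. Myotube markers (Myog, Myh3, Acta1 and 5 others) summed to 104 to 945 normalized counts in the 45 myoblast samples and to 109000 or more in the 51 samples in low serum. A normalized count here is the count divided by the DESeq2 size factor of its sample; it is not divided by length, so levels are compared between samples and not between genes.

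In control myoblasts, all 3 genes went from a handful of counts per sample to between 182 and 525 normalized counts with piericidin. The normalized counts of Car6 were 3.79, 3.60 and 0.0 with DMSO and 419, 462 and 525 with piericidin. For Avil they were 3.79, 1.44 and 0.0 with DMSO and 182, 285 and 234 with piericidin. Prg4 had 5.68, 2.88 and 3.80 with DMSO and 312, 382 and 451 with piericidin. The groups are far apart for each gene, which is what the choice of these genes used, so these values are given without a test. By log2 fold change, Car6 (7.47) stood 7th, Avil (7.02) 11th and Prg4 (6.55) 13th among 11981 genes, and Atf3, a stress-induced transcription factor, 10th (7.33). In bulk RNA, more cells with a transcript and more of it per cell cannot be told apart. In that comparison 30.9% of the genes tested were called higher.

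The other inhibitors were set against the same DMSO samples, so their folds are likewise a description. Car6 had 128, 124 and 122 normalized counts with antimycin and 567, 522 and 598 with oligomycin. Avil had 54.5, 48.0 and 27.3 with antimycin and 416, 420 and 390 with oligomycin. Thus by their means both stood highest with oligomycin, next with piericidin and lowest with antimycin. The Car6 samples with oligomycin and with piericidin overlapped, and these groups were not tested against each other. Prg4 had 208, 249 and 231 with antimycin and 42.1, 31.9 and 86.5 with oligomycin, and its order was piericidin, antimycin, oligomycin. Divided by the DMSO mean, Car6 stood at 190 ± 21.6 under piericidin, 50.7 ± 1.23 under antimycin and 228 ± 15.4 under oligomycin (SD, n = 3). The same folds of Avil were 134 ± 29.5, 24.8 ± 8.14 and 234 ± 9.28, and those of Prg4 were 92.7 ± 16.9, 55.6 ± 4.99 and 13 ± 7.05. The DMSO means of Car6 and Avil rest on 9 and 6 counts in all, with 0 in replicate 3. Without replicate 3 of each condition, the Car6 folds were 119 with piericidin and 147 with oligomycin, the Avil fold with piericidin was 89.4 and the Prg4 fold with oligomycin was 8.64. Without replicate 1, the Avil folds were 361, 52.3 and 563. Among all genes 32.1% were called higher with antimycin and 24.5% with oligomycin.

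The order of Car6 and Avil was not that of Ddit3. Ddit3 stood at 36.6 ± 1.10 times its DMSO mean with antimycin, 23.8 ± 0.377 with piericidin and 16.7 ± 0.424 with oligomycin (SD, n = 3). Atf4 had the same order as Ddit3, with folds of 6.70 ± 0.229, 5.14 ± 0.155 and 3.13 ± 0.0116, and so had Atf3, with 341 ± 20.1, 162 ± 10.9 and 62.2 ± 3.46. Tenm4, a transmembrane teneurin that RefSeq also lists as Doc4, was looked up after the values of the others were known. It stood at 12.2 ± 4.38 with oligomycin, 8.59 ± 4.35 with piericidin and 1.84 ± 1.13 with antimycin, the order of Car6 and Avil, with a DMSO mean of 2.64 normalized counts that came from 1 of 3 samples.

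**Figure D1:**
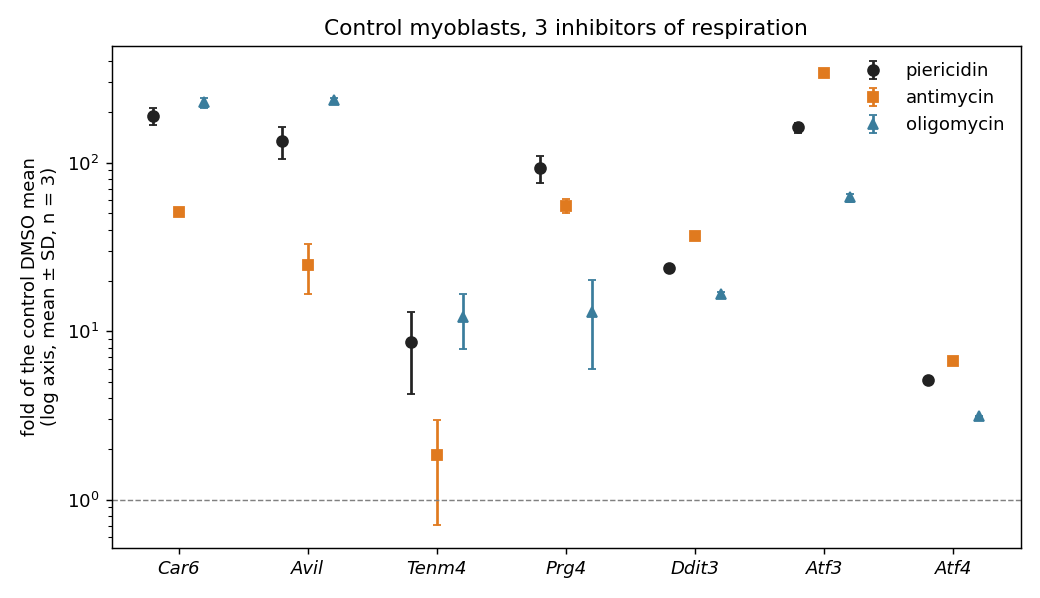
Fold of the control DMSO mean in control myoblasts for 7 genes (log axis), with points for the mean and bars for the SD of 3 samples per inhibitor. Car6, Avil and Tenm4 are lowest with antimycin, while Ddit3, Atf3 and Atf4 are highest with it, and Prg4 is lowest with oligomycin.

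The antimycin and oligomycin samples of control myoblasts are not among those whose fold chose the genes, although all share 1 fit, and the difference between them passed the test for all 3. Car6 was 2.14 lower on the log2 scale with antimycin (log2 fold change -2.14, SE 0.163, edgeR quasi-likelihood test with Benjamini-Hochberg adjustment, adjusted p = 2.9e-12). Avil was lower by more (log2 fold change -3.20, SE 0.280, edgeR adjusted p = 6.39e-11). Prg4 went the other way (log2 fold change 2.14, SE 0.329, edgeR adjusted p = 2.64e-06). Of all genes tested, 26.1% were called higher and 23.9% lower in this comparison. Ddit3 was higher with antimycin (log2 fold change 1.15, SE 0.0571, edgeR adjusted p = 1.31e-16), on the side of Prg4, and Cebpg, a C/EBP factor, was lower (log2 fold change -0.50, SE 0.130, edgeR adjusted p = 0.00177), as was Tenm4 (log2 fold change -2.69, SE 0.759, edgeR adjusted p = 0.00407).

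**Figure D2:**
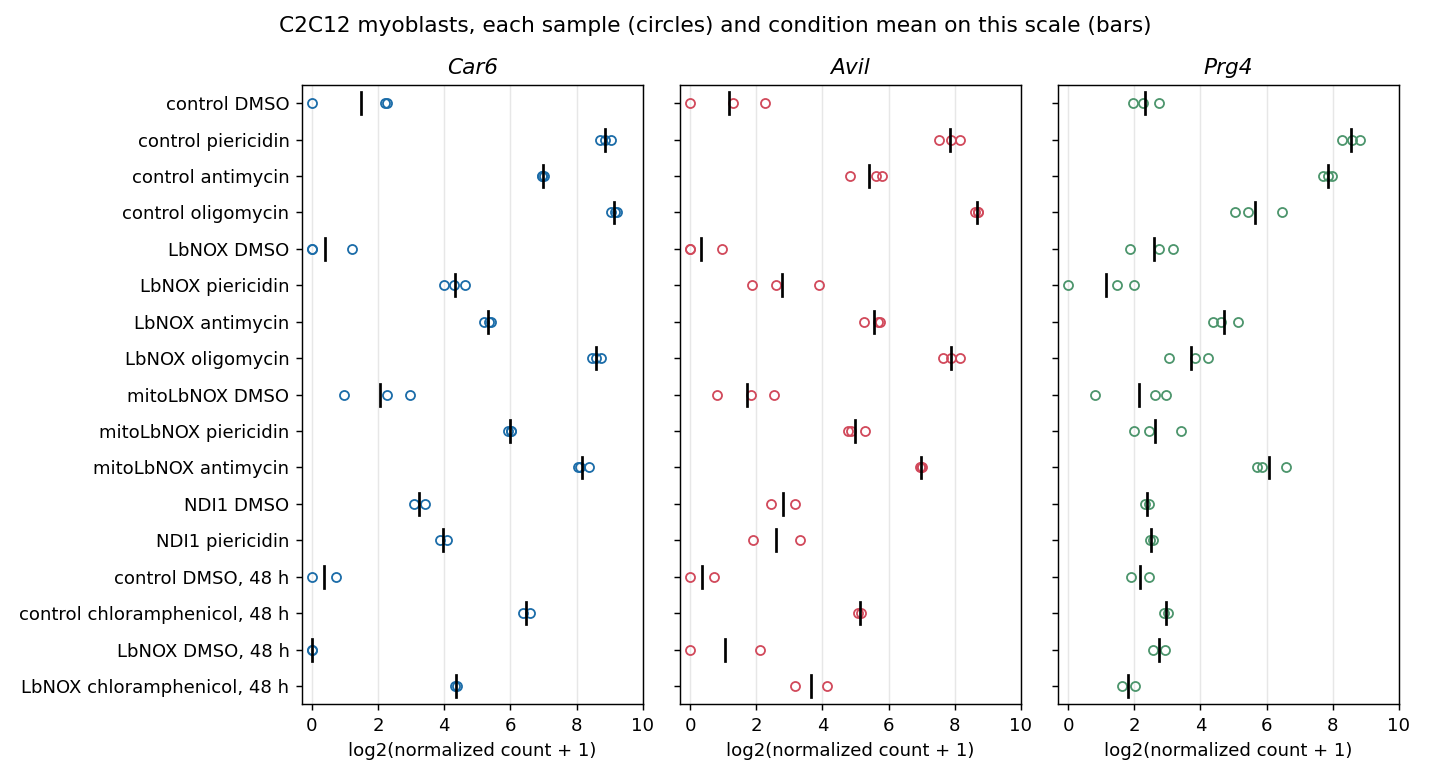
Levels of Car6, Avil and Prg4 in every myoblast sample, as log2 of the normalized count plus 1 (horizontal axis), by line and treatment (vertical axis), with a circle per sample and a bar for the mean of these log2 values. Car6 and Avil are high in control myoblasts with oligomycin or piericidin, LbNOX myoblasts with oligomycin and mitoLbNOX myoblasts with antimycin, and Prg4 is high in control samples with piericidin or antimycin.

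In LbNOX myoblasts, Car6 and Avil were still high with oligomycin. Car6 in LbNOX myoblasts was at 0.0, 1.31 and 0.0 normalized counts with DMSO and at 422, 385 and 349 with oligomycin. Avil was at 0.0, 0.0 and 0.959 with DMSO and 237, 199 and 284 with oligomycin. These groups do not overlap, and both genes rose (log2 fold change 9.20, SE 0.333, adjusted p = 6.3e-20 for Car6 and 9.28, SE 0.538, adjusted p = 9.75e-15 for Avil, edgeR). The ratio of summed counts, scaled for depth, was 712 for Car6, with an exact 95% counting interval of 197 to 5890, and 908 for Avil, with an interval of 162 to 35900, since their DMSO samples held 2 counts and 1 count in all. Prg4 was at 7.93, 2.62 and 5.76 with DMSO and 7.35, 17.8 and 13.4 with oligomycin, which overlap (log2 fold change 1.27, SE 0.557, edgeR adjusted p = 0.0779), and it passed without replicate 1 (1.94, adjusted p = 0.0406). Of all genes, 17.5% were called higher.

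Set directly against control myoblasts with oligomycin, LbNOX myoblasts kept 68.6% ± 6.49 of the Car6 level, 58.8% ± 10.4 of the Avil level and 24.0% ± 9.77 of the Prg4 level (SD, n = 3). All 3 differences were called lower (log2 fold change -0.54, SE 0.150, adjusted p = 0.0105 for Car6, -0.75, SE 0.241, adjusted p = 0.0254 for Avil, and -2.05, SE 0.418, adjusted p = 0.000562 for Prg4, edgeR), beside 10.3% of all genes. The call of Car6 was lost when any 1 replicate number was left out (adjusted p = 0.102 without replicate 1, 0.0676 without 2 and 0.0666 without 3), that of Avil without replicate 1 (0.148) or 2 (0.186), and that of Prg4 without replicate 3 (0.0638).

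With antimycin, all 3 genes rose in both LbNOX and mitoLbNOX myoblasts. In LbNOX myoblasts, Car6 was at 41.2, 36.0 and 40.2 normalized counts with antimycin, Avil at 52.5, 37.2 and 50.8, and Prg4 at 19.7, 23.6 and 33.9. In mitoLbNOX myoblasts, whose DMSO samples had 3.78, 6.84 and 0.972 for Car6, antimycin gave 328, 261 and 276. Avil in mitoLbNOX myoblasts went from 0.755, 2.56 and 4.86 with DMSO to 129, 123 and 126, and Prg4 from 0.755, 5.13 and 6.81 to 57.3, 95.9 and 51.4. Each antimycin group lies wholly above its own DMSO group. Within LbNOX myoblasts, all 3 genes rose with antimycin (log2 fold change 5.93, SE 0.460, adjusted p = 7.56e-12 for Car6, 6.94, SE 0.657, adjusted p = 4.77e-10 for Avil, and 2.30, SE 0.496, adjusted p = 0.000313 for Prg4, edgeR), where 23.3% of all genes were called higher. The ratios of summed counts were 73.0 for Car6 (exact 95% counting interval 19.7 to 610) and 176 for Avil (31.1 to 7010). Within mitoLbNOX myoblasts, all 3 rose as well (log2 fold change 6.17, SE 0.259, adjusted p = 1.64e-18 for Car6, 5.58, SE 0.422, adjusted p = 2.54e-12 for Avil, and 4.07, SE 0.472, adjusted p = 2.01e-08 for Prg4, edgeR), where 24.8% of all genes were called higher.

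Against control myoblasts under antimycin, LbNOX myoblasts had 31.3% ± 2.25 of the Car6 level and 11.2% ± 3.20 of the Prg4 level, but 108% ± 19.4 of the Avil level (SD, n = 3). Car6 and Prg4 were called lower (log2 fold change -1.67, SE 0.197, adjusted p = 1.37e-08, and -3.16, SE 0.357, adjusted p = 6.15e-09, edgeR), beside 32.7% of all genes, while the Avil groups overlapped (log2 fold change 0.11, SE 0.308, edgeR adjusted p = 0.772). Ddit3 was called lower in the same comparison, with a log2 fold change of -4.19 (SE 0.0663, edgeR adjusted p = 2.06e-29), and so was Cebpg (-0.96, edgeR adjusted p = 5.95e-07). MitoLbNOX myoblasts had more Car6 and Avil than control myoblasts under antimycin, at 231% ± 28.1 and 291% ± 6.27 of the control level, and less Prg4, at 29.7% ± 10.5. These differences were called (log2 fold change 1.21, SE 0.164, adjusted p = 5.01e-07 for Car6, 1.53, SE 0.285, adjusted p = 5.35e-05 for Avil, and -1.75, SE 0.321, adjusted p = 4.64e-05 for Prg4, edgeR), beside 22.2% of all genes called higher and 23.8% lower. Here Ddit3 was again lower (log2 fold change -0.48, SE 0.0563, edgeR adjusted p = 3.07e-08), as was Atf4 (log2 fold change -0.75, SE 0.0315, edgeR adjusted p = 4.2e-18), so Car6 and Avil moved opposite to both. Atf3 was lower too (log2 fold change -2.53, SE 0.140, edgeR adjusted p = 3.28e-15). Cebpg was higher (log2 fold change 0.46, SE 0.131, edgeR adjusted p = 0.00466), as Car6 and Avil were, and its part in their levels was not tested. LbNOX against mitoLbNOX myoblasts, both under antimycin, had less of all 3 (log2 fold change -2.88, SE 0.188, adjusted p = 1.32e-13 for Car6, -1.42, SE 0.281, adjusted p = 0.000117 for Avil, and -1.41, SE 0.369, adjusted p = 0.0024 for Prg4, edgeR), beside 23.9% of all genes. The Prg4 call was lost without replicate 2 (adjusted p = 0.0854).

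With piericidin, all 3 genes were far lower in each line with an added enzyme than in control myoblasts. Car6 was at 15, 18.8 and 23.9 normalized counts with piericidin in LbNOX myoblasts, at 59.9, 64.4 and 63.1 in mitoLbNOX myoblasts and at 13.5 and 15.9 in NDI1 myoblasts. Avil was at 5.01, 13.8 and 2.66 in LbNOX myoblasts, at 28.2, 37.7 and 26.6 in mitoLbNOX myoblasts and at 2.70 and 8.95 in NDI1 myoblasts. Prg4 was at 3.0, 0.0 and 1.77, at 9.70, 2.96 and 4.44, and at 4.50 and 4.97 in the same lines. As shares of the level in control myoblasts with piericidin, samples that the choice of the genes used and which are therefore not tested against, LbNOX kept 4.11% of Car6, 3.05% of Avil and 0.417% of Prg4. MitoLbNOX kept 13.3%, 13.2% and 1.49%, and NDI1 3.14%, 2.49% and 1.24%.

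What remained of the piericidin response was tested against the DMSO samples of each line. In LbNOX myoblasts Car6 and Avil still rose (log2 fold change 4.91, SE 0.533, adjusted p = 6.56e-08, and 4.12, SE 0.986, adjusted p = 0.00625, edgeR), beside 5.01% of all genes, with ratios of summed counts of 36.1 (exact 95% counting interval 9.54 to 305) and 24.1 (3.82 to 999). The call of Avil was lost without replicate 1 (adjusted p = 0.0636) or 2 (0.251). Prg4 did not pass (log2 fold change -1.53, SE 0.821, edgeR adjusted p = 0.266). Likewise in mitoLbNOX myoblasts, Car6 and Avil rose (log2 fold change 3.96, SE 0.296, adjusted p = 1.44e-11, and 3.55, SE 0.486, adjusted p = 3.09e-06, edgeR), beside 6.37% of all genes, and Prg4 did not pass (log2 fold change 0.48, SE 0.650, edgeR adjusted p = 0.71). NDI1 myoblasts had 7.42 and 9.57 normalized counts of Car6, 4.45 and 7.98 of Avil and 4.45 and 3.99 of Prg4 with DMSO. Their piericidin samples gave log2 fold changes of 0.80 (SE 0.394, adjusted p = 0.58) for Car6, -0.10 (SE 0.675, adjusted p = 0.98) for Avil and 0.17 (SE 0.816, adjusted p = 0.972) for Prg4 by edgeR, which did not pass, and 0.00835% of all genes were called higher there.

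Chloramphenicol raised Car6 and Avil in control myoblasts and left Prg4 near its floor. Car6 was at 0.0 and 0.64 normalized counts after 48 hr with DMSO and at 95.7 and 81.8 with chloramphenicol. Avil went from 0.0 and 0.64 to 33.0 and 35.3. Both passed the test (log2 fold change 7.53, SE 0.596, adjusted p = 0.000245, and 6.16, SE 0.922, adjusted p = 0.00435, edgeR), beside 4.83% of all genes, with ratios of summed counts of 237 (exact 95% counting interval 41.9 to 9400) and 91.3 (15.8 to 3660). Prg4, at 2.70 and 4.48 with DMSO and 6.38 and 7.07 with chloramphenicol, was under the count minimum and was not tested. Avil passed it only through the control myoblasts with chloramphenicol, and Car6 only through samples with chloramphenicol. That these genes were tested thus rested on high values there. In LbNOX myoblasts Car6 was at 0 in both DMSO samples and at 19.1 and 19.8 with chloramphenicol, at least 12.5-fold higher with 3 counts over the DMSO group as the floor, and Avil went from 0.0 and 3.29 to 8.06 and 16.7. Car6 rose there (edgeR adjusted p = 0.0151), beside 0.675% of all genes, and Avil did not pass (log2 fold change 2.91, SE 0.905, edgeR adjusted p = 0.248, and 1.90 to 6.76 with 1 library left out). Against control myoblasts with chloramphenicol, LbNOX myoblasts had 22.0% ± 0.553 of Car6 and 36.3% ± 17.9 of Avil (SD, n = 2). The difference passed for Car6 (log2 fold change -2.19, SE 0.361, edgeR adjusted p = 0.0198), beside 1.70% of all genes called lower, and not for Avil (log2 fold change -1.47, SE 0.576, edgeR adjusted p = 0.25). With 2 samples a group, the Car6 calls in LbNOX myoblasts were fragile. Leaving out either LbNOX chloramphenicol sample ended the call of the rise, with fitted log2 fold changes of 7.38 to 7.42, as did leaving out LbNOX DMSO replicate 2. These fitted values stand over a DMSO group at 0 and do not measure the fold beyond the floor given above. Leaving out any 1 of the 4 chloramphenicol samples ended the call between lines, with log2 fold changes of -2.30 to -2.07.

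In myotubes, Car6 and Avil rose with oligomycin, a little with antimycin, and did not pass with piericidin. Car6 was at 2.19, 0.0 and 3.03 normalized counts with DMSO, at 3.42, 4.34 and 7.46 with piericidin, at 6.67, 8.24 and 9.23 with antimycin and at 241, 202 and 222 with oligomycin. Avil was at 3.29, 0.967 and 2.02 with DMSO, at 5.13, 5.42 and 3.73 with piericidin, at 8.89, 4.49 and 19.6 with antimycin and at 111, 106 and 107 with oligomycin. For both genes the oligomycin samples lie far above all others. Prg4 was at 73.4, 73.5 and 64.6 with DMSO, and its samples with any of the 3 inhibitors lay between 58.5 and 86.6. Oligomycin raised Car6 and Avil (log2 fold change 6.93, SE 0.432, adjusted p = 3.73e-12, and 5.64, SE 0.542, adjusted p = 1.08e-08, edgeR), beside 16.9% of all genes. By rank of log2 fold change they stood 3rd and 5th of 12491 genes, and Prg4 stood 5576th (log2 fold change 0.04, SE 0.169, edgeR adjusted p = 0.872). In the fit of untransduced myotubes Avil passed the count minimum only through the samples with oligomycin alone. Its tests and ranks in that fit therefore rested on a choice that used those samples. Antimycin raised Car6 and Avil by less (log2 fold change 2.15, SE 0.571, adjusted p = 0.0125, and 2.29, SE 0.640, adjusted p = 0.0176, edgeR), beside 6.64% of all genes, at 28 and 35 counts over 3 samples. The antimycin call of Car6 was lost without replicate 1 (adjusted p = 0.0873) or 2 (0.191), and that of Avil without replicate 1 (0.0538), 2 (0.118) or 3 (0.209). With piericidin the differences did not pass for Car6 (log2 fold change 1.59, SE 0.638, adjusted p = 0.137), Avil (1.15, SE 0.751, adjusted p = 0.415) or Prg4 (-0.19, SE 0.174, adjusted p = 0.596), by edgeR, beside 4.15% of all genes called higher.

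**Figure D3:**
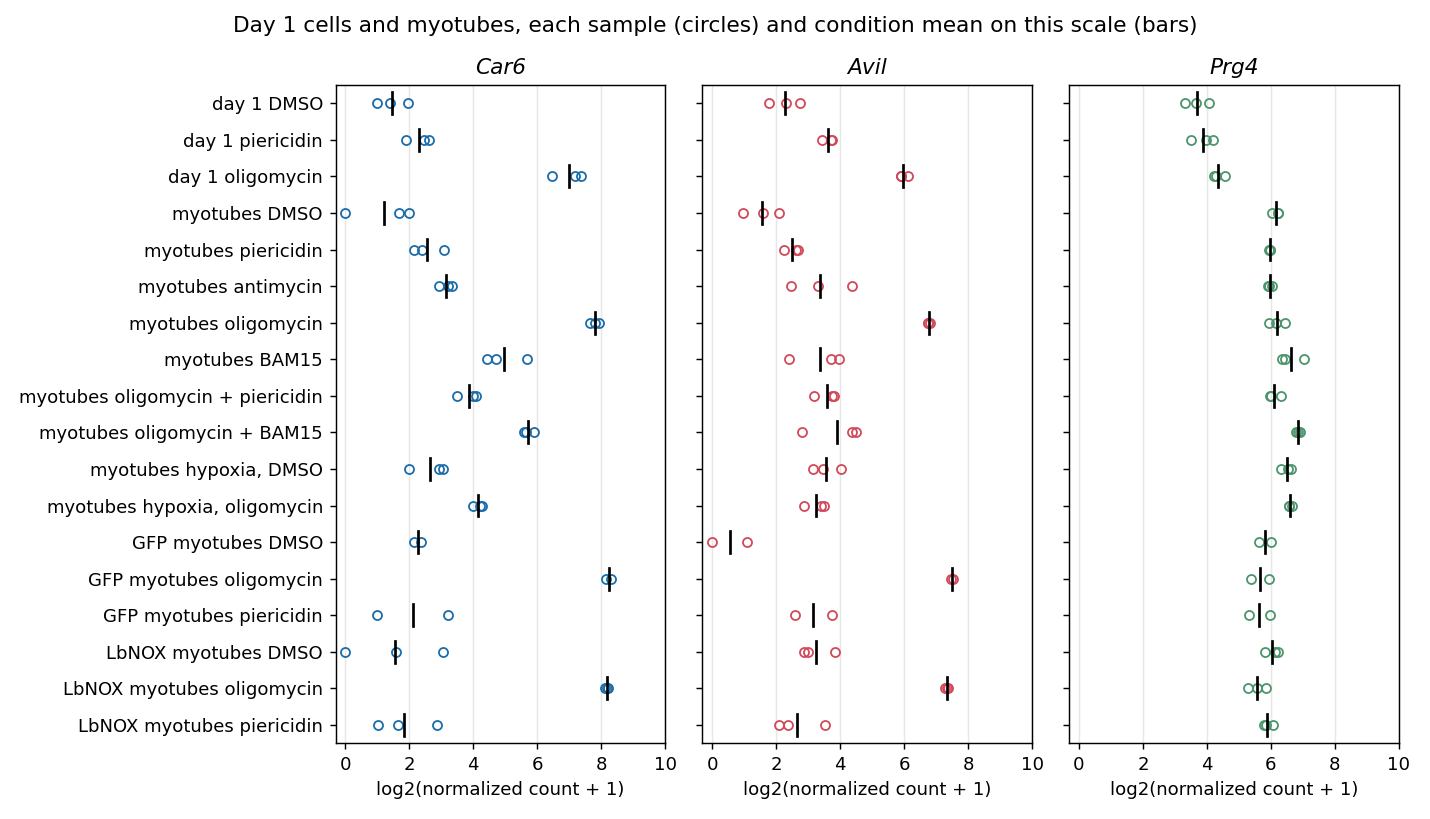
Levels of the 3 genes in every day 1 and myotube sample, as log2 of the normalized count plus 1 (horizontal axis), by treatment and transduction (vertical axis), with a circle per sample and a bar for the mean of these log2 values. Car6 and Avil are high with oligomycin alone at ordinary oxygen, and Prg4 is low in day 1 cells and spans a narrow range in myotubes.

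The uncoupler BAM15, which lets protons back into the matrix, raised Car6 and Avil to lower levels than oligomycin, and both were lower with oligomycin and BAM15 than with oligomycin alone. Car6 was at 20.7, 25.4 and 50.6 normalized counts with BAM15 and Avil at 14.8, 12.2 and 4.31. Car6 rose (log2 fold change 4.13, SE 0.481, edgeR adjusted p = 5.48e-07), as did Avil (2.30, SE 0.642, edgeR adjusted p = 0.01) and Prg4 (0.50, SE 0.166, edgeR adjusted p = 0.0292), beside 13.2% of all genes. The Avil call was lost without replicate 1 (adjusted p = 0.0653) or 2 (0.174), and that of Prg4, whose samples were at 131, 86.6 and 80.8, without replicate 1 (0.37), 2 (0.118) or 3 (0.0747). Oligomycin with BAM15 left Car6 at 46.7, 59.1 and 49.7 and Avil at 5.96, 19.7 and 21.6, below every sample with oligomycin alone (log2 fold change -2.09, SE 0.283, adjusted p = 3.12e-06, and -2.77, SE 0.411, adjusted p = 1.21e-05, edgeR), beside 14.1% of all genes called lower. Prg4 went up, from 86.6, 69.9 and 60.3 to 118, 115 and 108 (log2 fold change 0.66, SE 0.164, edgeR adjusted p = 0.00376), beside 12% of all genes called higher, a call lost without replicate 2 (adjusted p = 0.0962) or 3 (0.0571).

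With piericidin added to oligomycin, Car6 and Avil were far lower than with oligomycin alone. Car6 fell to 14.8, 10.4 and 16.1 normalized counts and Avil to 12.9, 12.5 and 8.06. Against oligomycin alone both were lower (log2 fold change -4.0, SE 0.324, adjusted p = 1.3e-09, and -3.26, SE 0.427, adjusted p = 2.95e-06, edgeR), beside 12.4% of all genes, and they ranked 12488th and 12485th of 12491 genes by log2 fold change, near the bottom. Ddit3 was lower too (log2 fold change -2.57, SE 0.0750, edgeR adjusted p = 7.23e-18), and Cebpg did not pass either with piericidin added (-0.25, edgeR adjusted p = 0.265) or with BAM15 added (-0.18, edgeR adjusted p = 0.409). Prg4, at 62.0, 79.1 and 62.5, overlapped with oligomycin alone (log2 fold change -0.10, SE 0.169, edgeR adjusted p = 0.751).

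In hypoxia the levels with oligomycin were low as well. Of 5 myoblast and cell cycle markers, 4 were called lower in hypoxia with DMSO, beside 9.78% of all genes (median log2 fold change -2.30). In hypoxia with oligomycin against oligomycin 4 were lower and 1 higher, beside 16.5% and 16.7% of all genes (median -2.56), and their part in the results was not tested. With oligomycin in 5% oxygen Car6 was at 18.5, 14.9 and 17.7 normalized counts and Avil at 10.4, 9.56 and 6.3. Both were lower than with oligomycin at ordinary oxygen (log2 fold change -3.68, SE 0.321, adjusted p = 1.77e-09, and -3.57, SE 0.448, adjusted p = 7.28e-07, edgeR), beside 16.5% of all genes. Ddit3 was lower by 2.73 on the log2 scale (log2 fold change -2.73, SE 0.0763, edgeR adjusted p = 5.53e-19). Prg4 was higher, at 93.5, 94.6 and 101 (log2 fold change 0.43, SE 0.167, edgeR adjusted p = 0.0485), beside 16.7% of all genes, and its call was lost without replicate 2 (adjusted p = 0.297) or 3 (0.362) and with DESeq2 size factors (log2 fold change 0.41). Hypoxia alone brought Avil to 15.5, 7.96 and 10.1 from 3.29, 0.967 and 2.02 with DMSO (log2 fold change 2.39, SE 0.641, edgeR adjusted p = 0.0077), beside 12.3% of all genes, lost without replicate 1 (adjusted p = 0.061) or 2 (0.0898). Car6, at 6.65, 2.98 and 7.38, and Prg4, at 98.6, 92.5 and 79.3, did not pass (log2 fold change 1.68, SE 0.617, adjusted p = 0.0526, and 0.37, SE 0.167, adjusted p = 0.12, edgeR).

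In transduced myotubes, oligomycin raised Car6 and Avil both with GFP alone and with LbNOX. Car6 was at 4.16 and 3.46 normalized counts with DMSO and 317 and 284 with oligomycin in GFP myotubes, and at 7.42, 2.03 and 0.0 with DMSO and 296, 279 and 290 with oligomycin in LbNOX myotubes. Avil was at 0.0 and 1.15 with DMSO and 176 and 183 with oligomycin in GFP myotubes, and at 6.36, 13.2 and 7.04 with DMSO and 164, 154 and 162 with oligomycin in LbNOX myotubes. All of these rises passed (log2 fold change of Car6 6.29, SE 0.523, adjusted p = 6.4e-07, and 6.44, SE 0.438, adjusted p = 4.61e-08, and of Avil 8.09, SE 0.616, adjusted p = 2.45e-07, and 4.15, SE 0.334, adjusted p = 2.38e-07, in GFP and LbNOX myotubes, edgeR), beside 13.8% and 16.6% of all genes. The Avil ratio in GFP myotubes was 328 with an exact 95% counting interval of 58.6 to 13000, since their DMSO samples held 1 count. Whether the effects differ between GFP and LbNOX myotubes was not tested. Car6 and Avil passed the count minimum in this fit only through the oligomycin samples, so their being tested rested on high values there. Prg4 had log2 fold changes of -0.11 (SE 0.295, adjusted p = 0.831) and -0.47 (SE 0.238, adjusted p = 0.157) by edgeR.

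With piericidin, the same myotubes did not pass the test for any of the 3 genes. Avil in GFP myotubes was at 4.97 and 12.5 normalized counts (log2 fold change 3.70, SE 0.959, edgeR adjusted p = 0.0533; ratio 15.8, exact 95% counting interval 2.47 to 660), it ranged from 3.28 to 5.35 with 1 replicate left out, and it passed when genes with low counts were kept (adjusted p = 0.00679). In LbNOX myotubes Avil was at 4.17, 3.22 and 10.6 (log2 fold change -0.60, SE 0.486, edgeR adjusted p = 0.519). Car6 and Prg4 had log2 fold changes between -0.19 and 0.25 in both, with edgeR adjusted p of 0.694 or more. Of all genes, 1.37% were called higher in GFP and 3.24% in LbNOX myotubes.

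In day 1 cells, per the study's text largely post-mitotic and not yet differentiated, Car6 and Avil rose with oligomycin and did not pass with piericidin. Car6 was at 0.988, 2.89 and 1.64 normalized counts with DMSO, at 2.71, 5.09 and 4.50 with piericidin and at 145, 87.9 and 163 with oligomycin. Avil was at 3.95, 5.79 and 2.46, at 9.92, 12.2 and 12.4, and at 68.1, 58.9 and 59.2. Both rose with oligomycin (log2 fold change 6.11, SE 0.401, adjusted p = 8.48e-07, and 3.95, SE 0.312, adjusted p = 3.76e-06, edgeR), beside 10.6% of all genes. In the fit of day 1 cells all 3 genes passed the count minimum only through the oligomycin samples, so their being tested rested on high values there. With piericidin, Car6 (log2 fold change 1.09, SE 0.644, adjusted p = 0.455) and Avil (1.49, SE 0.375, adjusted p = 0.0618) did not pass by edgeR, though the 3 Avil samples lie above all DMSO samples; 1.39% of all genes were called higher. Prg4 was at 15.8, 11.6 and 9.03 with DMSO and 22.7, 17.6 and 18.3 with oligomycin (log2 fold change 0.73, SE 0.326, edgeR adjusted p = 0.149), and its piericidin value was 0.23 (SE 0.338, adjusted p = 0.803).

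Prg4 was higher in myotubes than in day 1 cells. Myotubes with DMSO had 73.4, 73.5 and 64.6 normalized counts of Prg4 against 15.8, 11.6 and 9.03 in day 1 cells (log2 fold change 2.55, SE 0.245, edgeR adjusted p = 1.65e-07), beside 19.5% of all genes called higher. It was also higher in myotubes with piericidin (2.13, SE 0.247, adjusted p = 1.78e-06) and with oligomycin (1.88, SE 0.234, adjusted p = 4.41e-06), by edgeR, beside 19.7% and 19.2% of all genes. Car6 and Avil did not pass between the states with DMSO (log2 fold change -0.09, SE 0.799, adjusted p = 0.942, and -0.91, SE 0.473, adjusted p = 0.284, edgeR). With oligomycin both were higher in myotubes (0.74, SE 0.238, adjusted p = 0.0212, and 0.79, SE 0.211, adjusted p = 0.00679, edgeR), and with piericidin Avil was lower (-1.26, SE 0.355, adjusted p = 0.0173), beside 17.7% of all genes. These calls of Car6 and Avil were not firm: without replicate 1, 2 or 3 the oligomycin difference had adjusted p of 0.117, 0.0789 and 0.0602 for Car6 and 0.053, 0.0676 and 0.101 for Avil, and the piericidin difference of Avil was lost without replicate 2 (0.0684) or 3 (0.15). Day 1 cells and myotubes were compared in 1 fit, and culture time cannot be told apart from differentiation. Car6 and Avil passed the count minimum of that fit only through oligomycin samples.

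**Figure D4:**
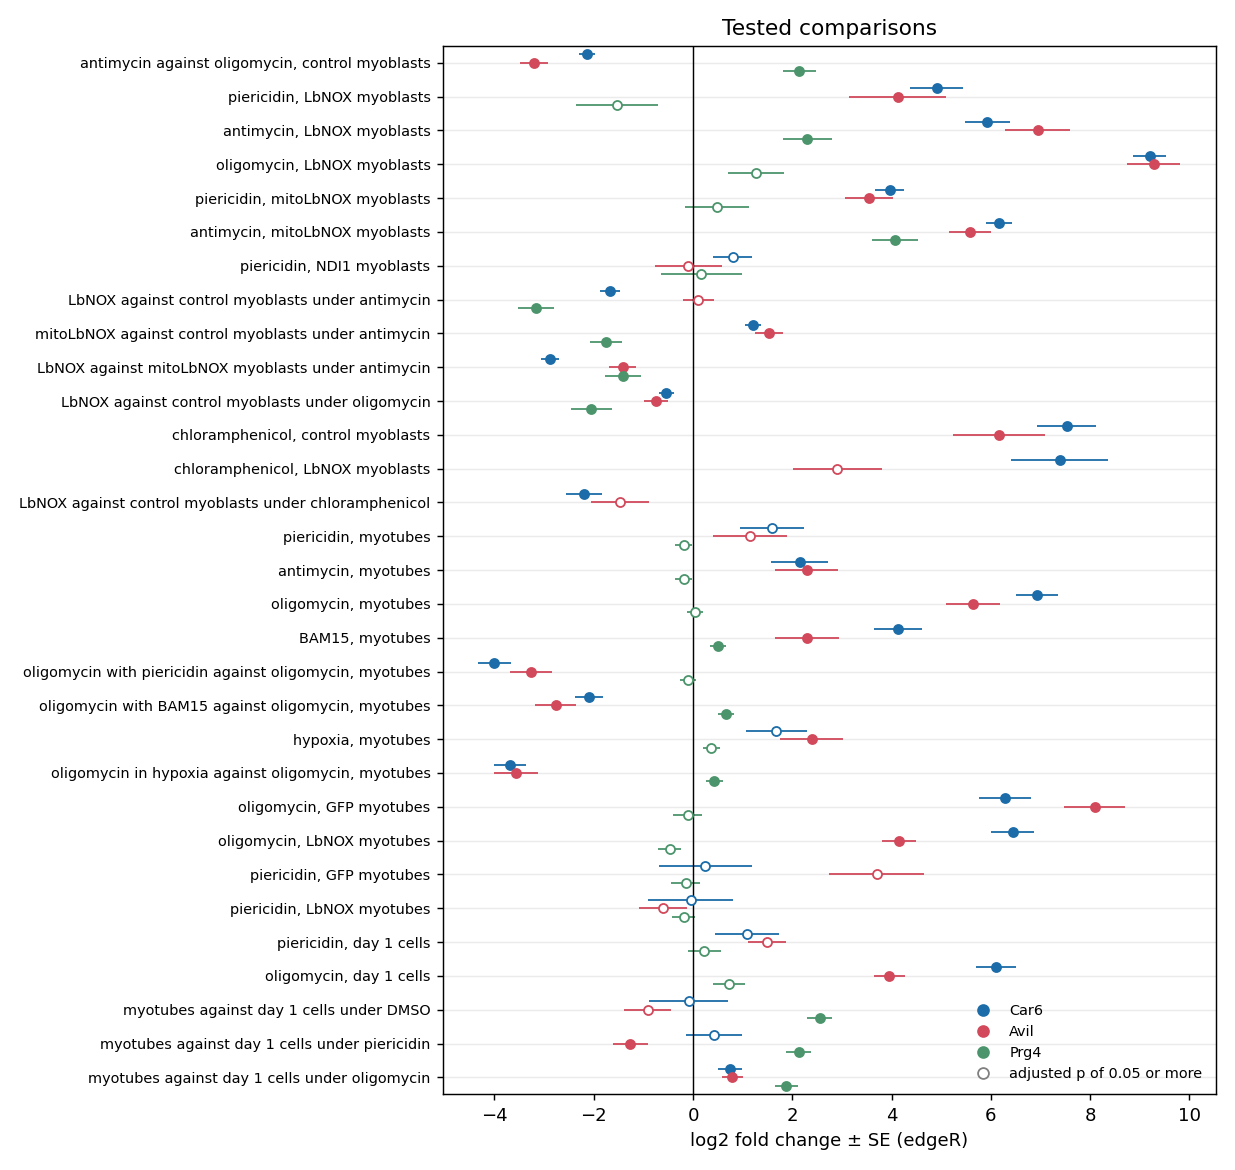
Log2 fold changes with SE (horizontal axis, edgeR) of Car6, Avil and Prg4 in 31 tested comparisons (vertical axis), with filled points for adjusted p under 0.05; Prg4 has no point in the 3 chloramphenicol comparisons. Car6 and Avil lie on the same side of 0 wherever both are filled, and Prg4 lies opposite to them in 4 of the 10 comparisons in which all 3 are filled.

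Over the 31 tested comparisons, Car6 was called higher in 15 and lower in 8, Avil higher in 15 and lower in 7, and Prg4, tested in 28, higher in 9 and lower in 4. These comparisons share samples, so the counts describe the set and are not independent.

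Across all 35 conditions the mean of Car6 ran from 0 in LbNOX myoblasts with DMSO for 48 hr to 562 normalized counts in control myoblasts with oligomycin. Its 7 highest conditions were control myoblasts with oligomycin (562) and piericidin (469), LbNOX myoblasts with oligomycin (386), GFP myotubes with oligomycin (301), mitoLbNOX myoblasts with antimycin (288), and LbNOX (288) and untransduced (222) myotubes with oligomycin. Of the 34 steps between neighbours in the order, 12 exceeded the spread of the neighbours; GFP myotubes, mitoLbNOX myoblasts with antimycin and LbNOX myotubes did not differ beyond it. Avil ran from 0.32 to 409, with the same 7 conditions at the top in a slightly different order, and 8 of its 34 steps exceeded the spread. Prg4 ran from 1.59 in LbNOX myoblasts with piericidin to 382 in control myoblasts with piericidin, followed by control myoblasts with antimycin (229) and myotubes with oligomycin and BAM15 (114). Of its 34 steps, 6 exceeded the spread, and all 15 myotube conditions lay between 46.9 and 114.

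The patterns of Car6 and Avil over the 35 conditions were close (Pearson r = 0.967, Spearman rho = 0.932, on log2 of CPM plus 1), and Prg4 was apart from both (r = 0.349 with Car6 and 0.344 with Avil). Over the 17 myoblast conditions Car6 and Prg4 had r = 0.713, and over the 18 conditions in low serum 0.041. These correlations are descriptions over condition means that share the choice of the genes, the sequencing and the treatments. The 5 genes most like Car6 were Cdsn (0.972), Avil, the glycine transporter Slc6a9 (0.967), Hax1 (0.961) and the tRNA synthetase gene Eprs (0.952). The 5 most like Avil were Car6, Hax1 (0.943), Ghitm (0.942), Cdsn (0.941) and Leprotl1 (0.940), and the 5 most like Prg4 were Pvr (0.914), Hipk2 (0.905), Asb5 (0.887), the cytokine gene Il11 (0.881) and Dync1h1 (0.881). Ddit3 had r = 0.926 with Car6, and 21 genes were more alike. In conditions in low serum the r of Ddit3 with Car6 was 0.990, and in myoblasts 0.911. Avil had r = 0.873 with Ddit3 over all conditions. Prg4 had r = 0.539 with Ddit3 over all conditions, 0.869 in myoblasts and 0.067 in low serum. Over all conditions Tenm4 had r = 0.631 with Car6, 0.695 with Avil and 0.641 with Prg4.

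**Figure D5:**
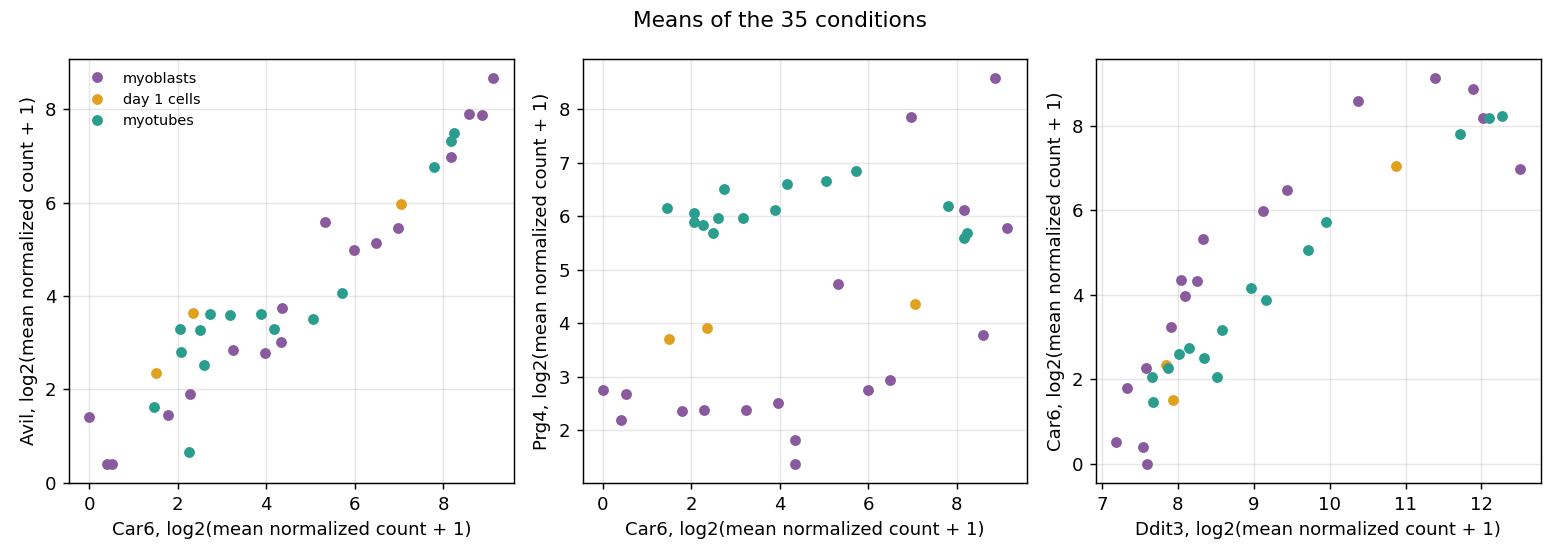
Means of the 35 conditions as log2 of the mean normalized count plus 1, Avil against Car6 (left), Prg4 against Car6 (middle) and Car6 against Ddit3 (right), with a point per condition coloured by stage. Avil and Car6 rise together at all stages, Prg4 follows Car6 in some myoblast conditions and does not follow it in myotubes, and the myoblast point farthest right against Ddit3 (control, antimycin) has less Car6 than 8 points to its left.

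Of the 15 other carbonic anhydrase genes looked up, 10 passed the filter in at least 1 fit, and those with the most reads were Car13, a cytosolic enzyme, and Car3, an enzyme of muscle. In LbNOX myoblasts with oligomycin, 3 of 5 tested were called lower, beside 17.7% of all genes, with a median of -1.0 for the 5 and -0.01 for all genes on the log2 scale. Car13 was lower there (log2 fold change -1.0, SE 0.0649, edgeR adjusted p = 1.45e-13) and Car3 did not pass (-0.19, SE 0.131, edgeR adjusted p = 0.273). In myotubes with oligomycin, 2 of 9 were called higher, beside 16.9% of all genes, Car8 (1.27, SE 0.296, edgeR adjusted p = 0.00164) and Car7 (1.41, SE 0.475, edgeR adjusted p = 0.0242), and 2 lower, beside 16.4%, Car2 (-0.89, SE 0.208, edgeR adjusted p = 0.00167) and Car12 (-0.94, SE 0.331, edgeR adjusted p = 0.0299), and the median was 0.00. With BAM15 in myotubes, 5 of 9 were called higher, as Car6 was, beside 13.2% of all genes. Where antimycin was set against oligomycin in control myoblasts, 4 of 5 were higher, beside 26.1% of all genes and opposite to Car6.

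Of 7 relatives of Avil, 4 passed the filter, and those with the most reads, a quantity that also rises with gene length, were Gsn, gelsolin itself, and Flii, a gelsolin-like protein. In LbNOX myoblasts with oligomycin, 2 of the 4 tested were called lower, beside 17.7% of all genes, with a median of -0.07 against -0.01 for all genes. These were Gsn (log2 fold change -0.35, SE 0.0456, edgeR adjusted p = 3.29e-07) and Flii (-0.20, SE 0.0562, edgeR adjusted p = 0.00475). In myotubes with oligomycin 1 of 4 was higher, beside 16.9% of all genes, namely Svil (0.28, SE 0.0726, edgeR adjusted p = 0.00383), and 1 lower, beside 16.4%, namely Capg (-0.13, SE 0.0469, edgeR adjusted p = 0.0357). In LbNOX against control myoblasts under antimycin, where Avil did not pass, 3 of the 4 were called higher and 1 lower, beside 30.4% and 32.7% of all genes, with a median of 0.24.

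Among 13 genes of joint lubrication and cartilage, 7 passed, and Cd44, a hyaluronan receptor, had the most reads in myoblasts and Cilp, a cartilage matrix protein gene, in myotubes. Has1, which makes hyaluronan, and Creb5, a transcription factor, went with Prg4 where antimycin was set against oligomycin in control myoblasts (log2 fold change 3.78, SE 0.349, adjusted p = 2.05e-10, and 1.63, SE 0.149, adjusted p = 1.5e-10, edgeR), and Has2 and Cd44 were lower (-0.61, SE 0.155, adjusted p = 0.00165, and -0.20, SE 0.0467, adjusted p = 0.000617, edgeR), so that 2 of 4 tested were higher and 2 lower, beside 26.1% and 23.9% of all genes. LbNOX myoblasts under antimycin had less Has1 (-2.54, SE 0.319, edgeR adjusted p = 4.69e-08) and Creb5 (-2.61, SE 0.159, edgeR adjusted p = 7.46e-15) than control myoblasts, as they had less Prg4; 3 of the 4 were lower, beside 32.7% of all genes, with a median of -1.56.

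ATF4, CHOP and C/EBP factors were measured in the same samples. Of 7 genes of the ATF4, CHOP and C/EBP list, 5 passed in at least 1 fit, and Atf4 and Ddit3 had the most reads. In myotubes with oligomycin 4 of 5 rose, beside 16.9% of all genes, Ddit3 by 4.06 on the log2 scale (SE 0.0829, edgeR adjusted p = 1.72e-21) and Atf4 by 1.69 (SE 0.0465, edgeR adjusted p = 5.42e-19), with a median of 1.69 for the list. In LbNOX myoblasts with antimycin, where Avil was at 108% of the level in control myoblasts, Atf4 was lower (-0.51, SE 0.0324, edgeR adjusted p = 7.49e-14) and Ddit3 higher by 1.17 (SE 0.0692, edgeR adjusted p = 1.47e-14) than with DMSO. With chloramphenicol in control myoblasts all 4 tested rose, beside 4.83% of all genes, Ddit3 by 1.95 (SE 0.129, edgeR adjusted p = 3.53e-05), and in LbNOX myoblasts Ddit3 did not pass (0.46, SE 0.134, edgeR adjusted p = 0.217), while Car6 did.

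Markers of the cell types in which these genes are best known were looked up in the same samples. Of 5 salivary gland markers only Aqp5, a water channel, passed the filter; the summed level of the list was 658 to 3690 normalized counts in myoblasts and 409 to 1330 in low serum, and Smr3a was at 0 in 94 samples and Prol1 in 93. Aqp5 was lower with oligomycin in LbNOX myoblasts (log2 fold change -0.83, SE 0.273, edgeR adjusted p = 0.0173) and in myotubes (-0.73, SE 0.174, edgeR adjusted p = 0.00202), and it did not pass with oligomycin in GFP myotubes (-0.03), LbNOX myotubes (-0.34) or day 1 cells (-0.47). Under antimycin it was lower in LbNOX than in control myoblasts (-0.98, SE 0.270, edgeR adjusted p = 0.0024), as Car6 was. In control myoblasts it was higher with antimycin than with oligomycin (1.68, SE 0.276, edgeR adjusted p = 7.59e-06), opposite to Car6. Of 5 sensory neuron markers 3 passed, with sums of 6.84 to 40.8 in myoblasts and 17.2 to 102 in low serum. Of 4 tuft cell markers Trpm5 alone passed, with sums of 0 to 11 in myoblasts and 3.78 to 47.6 in low serum, and Pou2f3 was at 0 in 79 samples. Of 5 cartilage markers 2 passed, mostly through Sox9, with sums of 141 to 515 over all samples, while Acan was at 0 in 87 samples and Matn1 in 92. Col2a1, the other one that passed, went opposite to Prg4 with antimycin against oligomycin in control myoblasts (log2 fold change -3.41, edgeR adjusted p = 8.05e-05) and in LbNOX against control myoblasts under antimycin (3.90, edgeR adjusted p = 5.58e-06). Col2a1 was at 0 in 44 samples, and its direction does not stand for Sox9, whose changes are not given here.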

How the data were processed

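RNA was sequenced from 96 samples by an unstranded Smart-seq2 protocol with paired reads. Per the labels and the study's methods, the authors made reads with bcl2fastq 2.20.0.422, pseudo-aligned them with kallisto 0.44 to Ensembl transcripts of GRCm38.p6 with the transgenes added, summed transcripts to genes with tximport, and added up both flow cells. The deposited values are therefore estimated counts per gene, not normalized, which rest on how reads shared between transcripts are split. They were rounded to whole numbers. Groups came from the sample labels. The members and the gene lists were chosen with earlier results of these data known.

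Comparisons were made with edgeR 4.0.16 (R 4.3.3), with TMM normalization, the quasi-likelihood F test and Benjamini-Hochberg adjustment over all genes of a fit, and a threshold of 0.05. The fits were of myoblasts (37 samples, 11981 genes), chloramphenicol (8, 11704), myotubes (27, 12491), transduced myotubes (15, 12397), day 1 cells (9, 11827) and both states of differentiation (18, 12294), with genes of at least 16 counts in every replicate of 1 or more of the conditions in the fit. The SE is the log2 fold change over the square root of F. Levels are counts over DESeq2 1.42.0 size factors of all samples. Intervals on ratios of summed counts are exact and cover counting error only, at 6458295 to 15366745 counts a sample. Contrasts with control myoblast DMSO samples after 10 hr, which the choice of genes used, were not tested. The fitting script was tested on simulated counts.

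Besides the members, the genes named were the 5 most alike each member (Pearson correlation of condition means of log2 of CPM plus 1), the 2 of each list with the most reads, and Tsfm and Tpr. Tenm4, Aqp5, Capg and the other genes named from a list were chosen after their values were seen. The alternatives were DESeq2's Wald test and size factors, no filter, only the groups compared, a term for outer or inner positions of a well-like code in the labels, replicate blocks, and leaving out replicates. Replicate numbers did not pair the samples.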

Additional observations from a re-analysis of the deposited data

How the results depend on the processing

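Of the results under alternatives, 724 kept their direction and side of the threshold (or moved by less than the spread), 53 kept the direction but lost the call, 7 gained a call, 11 changed sign and 18 folds moved by more than the spread; the cause was not tested. Values are log2 fold changes for which the call changed, in myotubes unless stated. With DESeq2's Wald test, calls were lost for Avil between myotubes and day 1 cells under piericidin (-1.28), Prg4 with BAM15 (0.48) and Prg4 with oligomycin in hypoxia against oligomycin (0.41), and Prg4 gained one with oligomycin in LbNOX myoblasts (1.29). With DESeq2 size factors that Prg4 hypoxia call was lost (0.41). Without the filter, calls were lost for Avil between states under oligomycin (0.79) and piericidin (-1.26), and for Prg4 with BAM15 (0.48) and with oligomycin in hypoxia (0.41), and gained for Avil with chloramphenicol in LbNOX myoblasts (2.91) and with piericidin in GFP myotubes (3.70), and for Prg4 with oligomycin in LbNOX myoblasts (1.25). With only the groups compared, Prg4 lost its calls with BAM15 (0.49) and with oligomycin in hypoxia (0.44). With a term for outer or inner positions of a code in the labels that reads like a plate well, whose meaning the labels do not explain, calls were lost for Avil between states under piericidin (-1.25) and Prg4 with oligomycin in hypoxia (0.39), Avil gained one with piericidin in GFP myotubes (3.70), and with piericidin in NDI1 myoblasts Avil (0.04) and Prg4 (-0.26), not called in either, changed sign. Replicate numbers did not pair the samples; with a replicate block, Car6 lost its call between LbNOX and control myoblasts under chloramphenicol (-2.19, adjusted p = 0.0501, edgeR), gained one with hypoxia (1.68, adjusted p = 0.0431, edgeR), and no other call of the 3 genes changed. A block with crossed numbers, chosen after seeing the data, gave 940 genes called with chloramphenicol in control myoblasts and 338 with piericidin in GFP myotubes, against 757 and 330 with the block as labelled and 989 and 383 without.

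Leaving out 1 replicate changed calls or signs over these ranges of log2 fold change. In LbNOX myoblasts, Avil with piericidin ranged from 2.76 to 6.29, Prg4 with oligomycin from 0.59 to 1.94, and Car6 with chloramphenicol from 7.38 to 7.42. The range of Car6 was fitted over a DMSO group with 0 counts, so it does not measure how firm the fold is. Prg4 with piericidin in mitoLbNOX myoblasts ranged from -0.67 to 1.11 and Avil with piericidin in NDI1 myoblasts from -0.70 to 0.22. Between lines, Avil in LbNOX against control myoblasts under antimycin ranged from -0.19 to 0.34, Prg4 in LbNOX against mitoLbNOX myoblasts from -1.86 to -1.01, Car6, Avil and Prg4 under oligomycin from -0.60 to -0.41, -0.92 to -0.63 and -2.59 to -1.59, and Car6 under chloramphenicol from -2.30 to -2.07. In myotubes the ranges were 1.52 to 2.72 (Car6) and 1.64 to 2.84 (Avil) with antimycin, -0.08 to 0.10 (Prg4) with oligomycin, 1.82 to 2.64 (Avil) and 0.26 to 0.61 (Prg4) with BAM15, -0.25 to 0.11 (Prg4) for piericidin and 0.59 to 0.77 (Prg4) for BAM15 added to oligomycin, 2.23 to 2.52 (Avil) with hypoxia and 0.28 to 0.59 (Prg4) with oligomycin in hypoxia against oligomycin. With piericidin, Car6 ranged from -1.90 to 1.22 in GFP and -1.50 to 1.82 in LbNOX myotubes, and Avil from -1.40 to 0.12 in LbNOX myotubes. Between myotubes and day 1 cells, Car6 ranged from -0.85 to 0.92 under DMSO and 0.57 to 0.89 under oligomycin, and Avil from -1.40 to -1.05 under piericidin and 0.73 to 0.85 under oligomycin. Calls that held while the value moved by over 1.5 times were, in LbNOX myoblasts, Car6 with piericidin (4.3 to 7.38), antimycin (5.42 to 8.42) and oligomycin (8.69 to 11.65) and Avil with antimycin (6.44 to 8.58) and oligomycin (8.81 to 10.87), in mitoLbNOX myoblasts, Avil with piericidin (3.13 to 4.3) and, with antimycin, Car6 (5.80 to 6.81), Avil (5.06 to 6.21) and Prg4 (3.61 to 4.73), in control myoblasts with chloramphenicol, Car6 (6.91 to 9.47) and Avil (5.53 to 8.10), and, with oligomycin, Car6 in myotubes (6.40 to 7.59), LbNOX myotubes (5.93 to 7.88) and day 1 cells (5.79 to 6.75) and Avil in GFP myotubes (7.18 to 10.48). Folds of the DMSO mean in control myoblasts with piericidin, antimycin and oligomycin ranged from 119 to 274, 34.1 to 68.5 and 147 to 311 for Car6, and 89.4 to 361, 19.6 to 52.3 and 160 to 563 for Avil, and with piericidin and antimycin from 80.5 to 125 and 46.2 to 71.8 for Prg4.

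Counts of all genes called moved by over 1.5 times under some settings. Without the filter they went from 1 to 552 (piericidin, NDI1), 109 to 750 (chloramphenicol, LbNOX), 360 to 786 (LbNOX against control under chloramphenicol), 841 to 1362 (piericidin, LbNOX myotubes) and 325 to 613 (piericidin, day 1). With DESeq2's Wald test the first 2 went to 4 and 173. With only the groups compared, they went from 1063 to 558 (piericidin, LbNOX myoblasts), 2282 to 1479 (LbNOX against control under oligomycin), 989 to 645 and 109 to 69 (chloramphenicol, control and LbNOX) and 383 to 27 (piericidin, GFP myotubes). With the term for that code they went from 4498 to 1585 and 4597 to 1523 (myotubes against day 1 under DMSO and piericidin). Leaving out replicate 1, 2 or 3 moved 12, 15 and 7 of 28 counts by as much, for example from 325 to between 25 and 47 (piericidin, day 1) and from 1063 to between 413 and 599 (piericidin, LbNOX myoblasts), and leaving out 1 chloramphenicol sample brought 989 to between 381 and 506 (control), 109 to 32 or 35 (LbNOX) and 360 to between 100 and 161 (between lines); the shares of all genes called rest on these counts. Depth limits the folds of Car6 and Avil against DMSO groups that held 0 to a few counts.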
